A study of Arabidopsis thaliana with 14 samples.

Results

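The transcripts described here are those of the 2 organelle genomes of the plant cell, read by 121 of the 22746 probe sets of the ATH1 array that are not controls. They were taken as the probe sets numbered 244901 to 245026, a run of 126, after 5 that the array annotation gives to a nuclear locus were dropped. Of the 121, 73 carry the name of a plastid gene and cover 72 genes, rps12 being read by 2 probe sets. A further 13 carry the name of a mitochondrial gene, and 35 have no gene in the table used here, of which 32 are numbered among the mitochondrial names and 3 among the plastid ones. The 4 probe sets of psbA, matK, rps16 and psbK lie outside the number range and are not members.

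Seeds of Arabidopsis thaliana genotype Ws-0 were studied at the mature green stage, when the embryo fills the seed and the seed coat layers have not yet collapsed. Siliques of plants 38 to 46 days old, grown in continuous light, were preserved in a mix of ethanol with acetic acid, set in paraffin and sectioned, and tissue was cut out by laser capture. There were 7 groups with 2 arrays each, labelled as biological replicates. They were the embryo proper, 3 parts of the endosperm (micropylar, peripheral and chalazal), the chalazal seed coat, the remaining seed coat, and whole seeds captured in the same way. The amplification before hybridisation started from 5 to 6 ng of RNA per sample. All groups share the genotype, the stage and the fixation, and the labels used here do not say how many seeds or plants went into a sample.

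The plastid genome encodes core subunits of both photosystems, the cytochrome b6f complex, the ATP synthase, Rubisco and the NDH complex, together with part of the plastid's own RNA polymerase and ribosome. Other subunits of most of these complexes are encoded in the nucleus and imported. Plastid genes are transcribed by that plastid-encoded polymerase and by a nuclear-encoded one of phage type, largely as RNAs that run over several neighbouring genes, so neighbouring probe sets do not give independent readings. Green embryos of Arabidopsis hold photosynthetically competent plastids while they fill with reserves. The mitochondrial genome encodes subunits of the respiratory chain, a cytochrome c maturation system, ribosomal proteins and a maturase of introns.

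Signals are array intensities on a linear scale. An array gives no read depth, and the 2 arrays of a group limit the precision. All 73 plastid and 13 mitochondrial members passed the filter on dim signal and were tested, while 8 of the 35 without a gene did not pass and were not tested. Differences below are of log2 signal, given with the standard error of the limma fit over all 14 arrays, and a probe set was called at an adjusted p under 0.05 over all 14257 tested. Because the level of a probe set also depends on its probes, differences were taken within a probe set. Medians and sums over probe sets were compared only between arrays, and bright probe sets weigh most in a sum. A ranking by brightness served only to choose genes to name.

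Replicate arrays correlated at 0.812 (seed coat) to 0.929 (peripheral endosperm) over log2 signals. The seed coat arrays stood apart. Their spike-in controls had geometric means of 60770 and 83580 against 24200 to 39500 on the other 12 arrays, and the control probe set for 25S ribosomal RNA read 198090 and 269390 against 80843.6 to 110306. Over all arrays the ratio of 3' to 5' control signal ran from 4.13 to 16.9 for actin and from 2.71 to 7.1 for GAPDH. Chalazal seed coat replicates 1 and 2 had 13.2 and 5.49 for actin and 3.55 and 3.53 for GAPDH. An effect of these ratios on the plastid signals was not tested. Of the marker genes, all 4 tested embryo markers were called higher in the embryo, but also all 4 in peripheral and 3 in micropylar endosperm. The endosperm sugar exporter SWEET11, the 1 tested of 4 endosperm markers, was called higher in peripheral and chalazal endosperm. In micropylar endosperm it was not called (-0.11), reading 862 to 2379 against 1449 to 2038 in the seed coat. Of 4 tested seed coat markers, 3 were called higher in the chalazal seed coat and 2 in the seed coat. The seed coat marker DELTA-VPE was also called higher in chalazal endosperm (1.68).

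Plastid transcripts were bright in every compartment and lowest in the chalazal seed coat, the maternal tissue at the end of the seed where the vascular supply ends. The median plastid signal was 9274 and 10650 on the embryo arrays, 12810 and 10030 in micropylar endosperm, 9965 and 9089 in peripheral endosperm and 7495 and 7869 in chalazal endosperm. It was 5438 and 7129 in the seed coat, 2190 and 3276 in the chalazal seed coat and 11520 and 11640 in whole seeds. The chalazal seed coat arrays lay below all 12 others, and the seed coat arrays between them and the filial tissues. The median mitochondrial signal was not lowest there: it was 3069 and 3114 in the chalazal seed coat, within the 1852 to 4144 of the other 12 arrays. For 68 of the 73 plastid probe sets the chalazal seed coat had the lowest of the 6 compartment means. The highest was the embryo for 35 and the micropylar endosperm for 23.

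**Figure D1:**
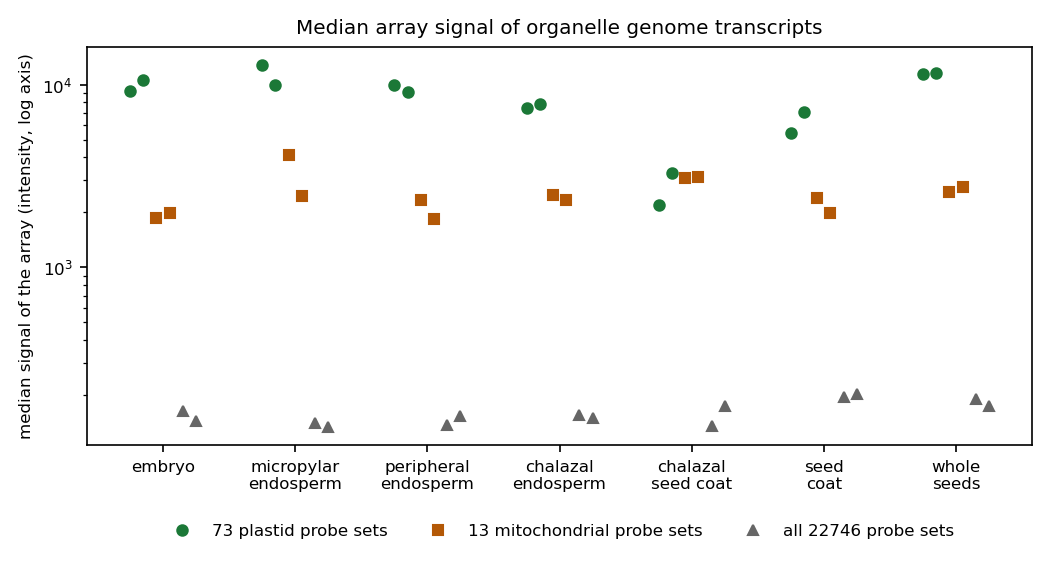
Median signal (intensity, log axis) of the 73 plastid, 13 mitochondrial and all 22746 probe sets on each of the 2 arrays of every group, each point being 1 array; colours are to be read each on its own, since probe sets differ in brightness. The plastid points of the chalazal seed coat sit at 2190 and 3276, below every other plastid point, while its mitochondrial points at 3069 and 3114 lie among the others.

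The members differed in how far they varied over the 6 compartments. The highest compartment mean exceeded the lowest by a median of 3.21 times for plastid probe sets, with a range of 1.21 to 8.45, and by a median of 2.06 times for mitochondrial ones, with a range of 1.40 to 2.56. The widest plastid spread belonged to rpl32, a protein of the large ribosomal subunit, and the narrowest to rps18, a protein of the small one. The 2 replicates of a group typically lay 0.34 log2 apart for plastid and 0.50 for mitochondrial members, against median spreads over compartments of 1.68 and 1.04. The mitochondrial spread is thus closer to the gap between replicates.

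**Figure D2:**
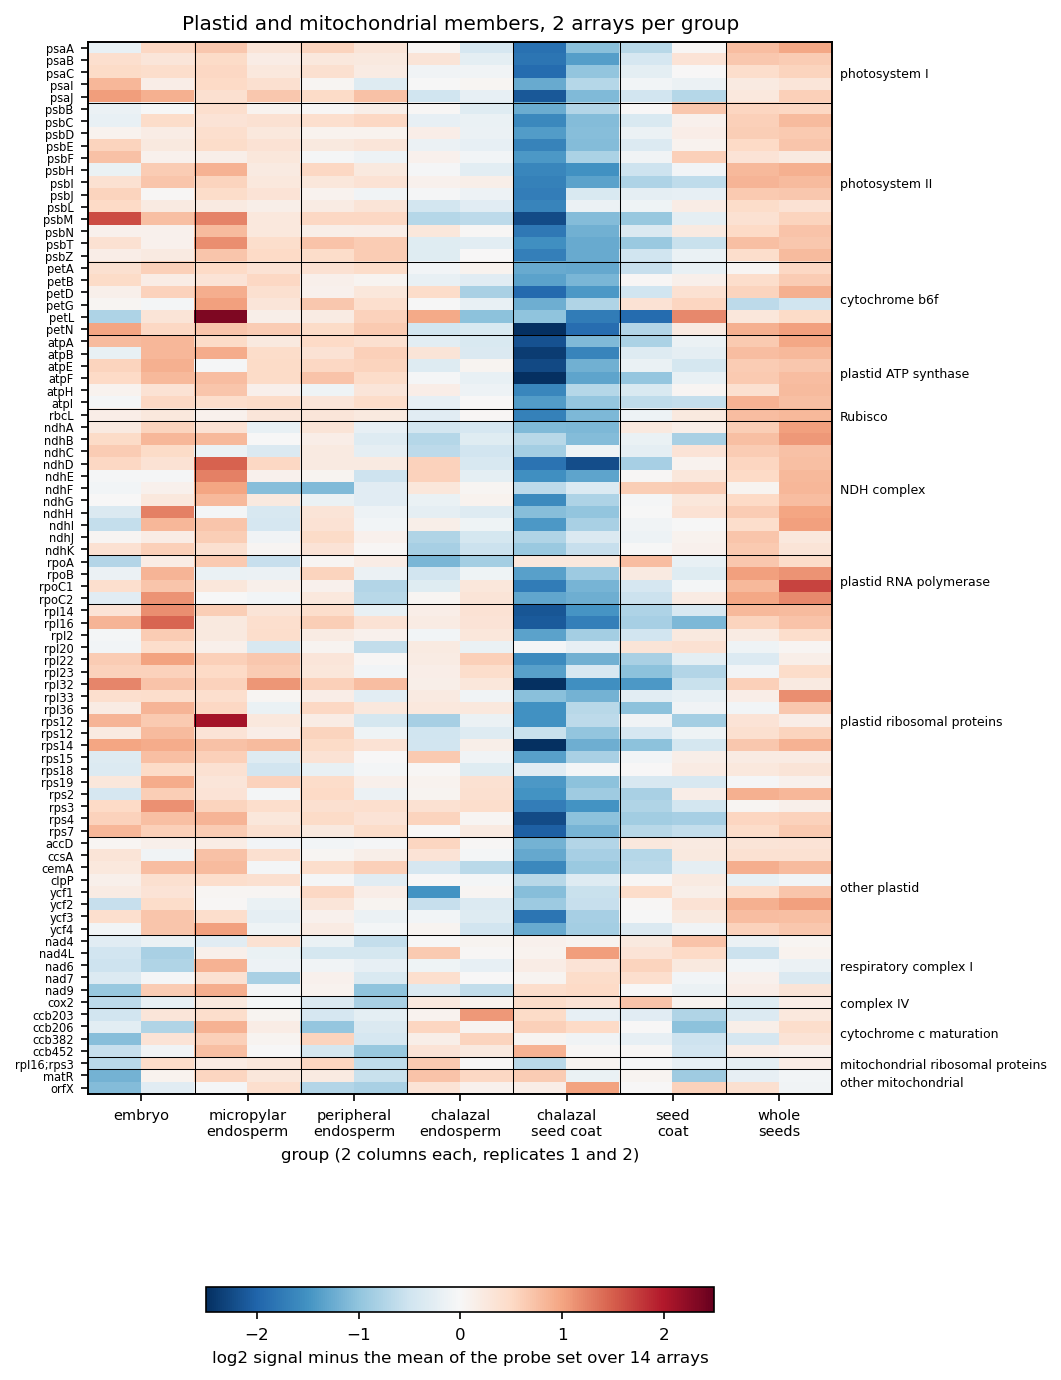
Log2 signal of the 73 plastid and 13 mitochondrial probe sets on the 14 arrays, each row centred on its own mean and the colour scale ending at 2.5 in both directions; rows are ordered by complex and columns by group, with replicates 1 and 2 side by side. The pair of chalazal seed coat columns is blue over nearly all plastid rows, with rpoA, rpl20 and rps18 as pale rows, and shows no such shift over the mitochondrial rows.

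In the chalazal seed coat, set against the average of the 5 remaining compartments, 65 of 73 plastid probe sets were called lower and 0 higher, with a median difference of -1.35. Over all tested probe sets 16.8% were called lower and the median difference was 0.015. For 58 of the 73 both chalazal seed coat arrays lay below all 10 arrays compared with, against 7.77% of all probe sets. None of the 13 mitochondrial members was called in either direction by limma, and their median difference was 0.30. The count of all members called was 70 (1 higher, 69 lower) and fell to 45, of which 43 were lower, without chalazal seed coat replicate 1, the array with the lower plastid signals. The share of the summed signal of an array that came from plastid members was 1.808% and 2.688% in the chalazal seed coat, 3.947% and 5.133% in the seed coat and up to 7.013% in whole seeds. In captured tissue, fewer plastids or plastid-bearing cells and less plastid RNA per cell cannot be told apart.

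Members of every photosynthetic complex were among those called. All 5 photosystem I and all 13 photosystem II probe sets were called lower in the chalazal seed coat, with median differences of -1.65 and -1.53. For psaB, a core protein of the photosystem I reaction centre, the signals were 14989 and 20613 in the chalazal seed coat, 40172 and 68035 in the seed coat, and between 45401 and 74418 in embryo and endosperm (-1.80 ± 0.25, adjusted p = 3.6e-05 by limma). The 2 chalazal seed coat arrays did not overlap with any other. Its partner psaA read 5174 and 9180 there against 11593 to 29936 on the other compartment arrays, a difference of -1.57 ± 0.27. For psbD, which encodes the D2 protein of photosystem II, the chalazal seed coat arrays read 14260 and 18152, and the other compartment arrays 34111 to 50465, again without overlap (-1.35 ± 0.21). The bright probe sets of psbF, a subunit of cytochrome b559, and psbB, the CP47 antenna protein, read 28348 and 44502, and 17115 and 24568, and the lowest values elsewhere in compartments were 70535 and 32833.

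The cytochrome b6f complex, which carries electrons between the photosystems, had 5 of 6 members called lower (median -1.53). Its small subunit gene petN showed the widest difference of any member. The petN signals were 2482 and 4066 in the chalazal seed coat, 11139 and 11756 in chalazal endosperm, 9238 and 17755 in the seed coat, and 21317 to 30103 in embryo, micropylar and peripheral endosperm (-2.52 ± 0.25, adjusted p = 1.8e-06). The petB gene, for cytochrome b6, read 7744 and 8785 against 16143 to 27766 (-1.38 ± 0.19). The member without a call, petL, had the least even replicates, with 234 and 2038 on the 2 seed coat arrays. All 6 ATP synthase members were called lower, and their median of -1.88 was the lowest of the complexes. For atpB, the catalytic beta subunit, the chalazal seed coat arrays read 1982 and 3276 and all other compartment arrays 7975 to 19401 (-2.25 ± 0.28, adjusted p = 1.4e-05). The rbcL transcript, for the large subunit of Rubisco, read 10307 and 15253 against 27192 to 40928 (-1.53 ± 0.22, adjusted p = 5.1e-05).

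The NDH complex, which returns electrons to the plastoquinone pool, had 8 of 11 members called lower, with a median of -1.06. The ndhD signals of 1556 and 1205 in the chalazal seed coat compared with 3149 to 15515 elsewhere in compartments (-2.31 ± 0.30). The ndhB signals of 1395 and 1065 overlapped with those of the seed coat, 2018 and 1281, and of chalazal endosperm, 1366 and 1827 (-0.88 ± 0.28, adjusted p = 0.023), and the call was lost without either chalazal seed coat array. The neighbours ndhC and ndhJ, and ndhF, were not called, with differences between -0.43 and -0.57.

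The genes of the plastid's own expression machinery were mixed. Of 19 ribosomal protein probe sets 17 were called lower (median -1.27), led by rpl32 with -2.45 ± 0.29 and rps14 with -2.26 ± 0.31. The rps14 difference was -1.46 without chalazal seed coat replicate 1 and -3.06 without replicate 2, called in both. The rpl32 signals were 1100 and 2453 in the chalazal seed coat, 2627 and 4819 in the seed coat and 7846 to 16626 in embryo and endosperm. The exceptions rps18 and rpl20 lay level with the other compartments: rpl20 read 13435 and 11982 in the chalazal seed coat and 9089 to 18904 elsewhere in compartments. Of the 4 genes for core subunits of the plastid-encoded RNA polymerase, rpoB, rpoC1 and rpoC2 were called lower (rpoB -1.14 ± 0.28, not called without chalazal seed coat replicate 1, at -0.91), and rpoA, for the alpha subunit, was not, at 0.42 ± 0.31 (adjusted p = 0.33). The rpoA arrays of the chalazal seed coat read 9961 and 9934, inside the 3785 to 14271 of the other compartments.

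**Figure D3:**
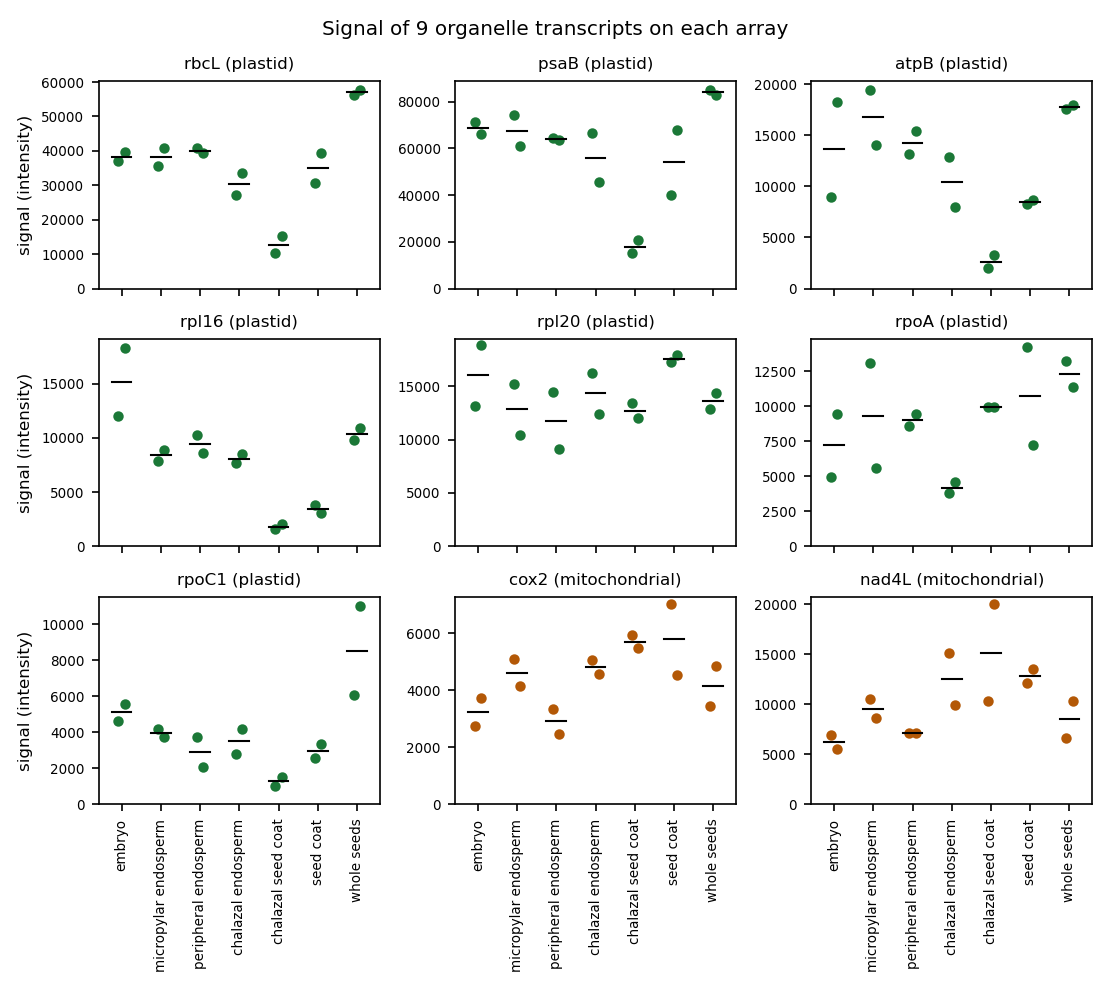
Signal (intensity, linear axis from 0) of 7 plastid and 2 mitochondrial probe sets on every array; points are arrays and bars the mean of 2. The chalazal seed coat pair is lowest for rbcL, psaB, atpB, rpl16 and rpoC1, and lies among the other groups for rpl20, rpoA and cox2.

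Of the 8 other plastid genes 7 were called lower, with a median of -1.12. The accD transcript, for a subunit of the plastid acetyl-CoA carboxylase that starts fatty acid synthesis, read 7126 and 9704 in the chalazal seed coat and 15363 to 23685 in all other compartments (-1.09 ± 0.21). The clpP transcript, for the proteolytic subunit of the Clp protease, read 11242 and 14570 against 14915 to 24520, without overlap (-0.63 ± 0.20, adjusted p = 0.022). The ycf1 gene, for a protein of the inner envelope import machinery, was called lower with -0.85 ± 0.30 (adjusted p = 0.037), a call kept in 10 of 24 settings and lost without either chalazal seed coat array, at -0.60 and -1.11. It was also lost without embryo replicate 2, peripheral endosperm replicate 1, or any array of micropylar endosperm or whole seeds. The clpP call was lost without chalazal seed coat replicate 1, at -0.45. The large reading frame ycf2 missed the threshold, at -0.70 ± 0.28 (adjusted p = 0.063), its arrays reading 751 and 954 against 945 to 1959.

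Position along the plastid genome, taken from RefSeq for the assembly TAIR10.1 and used only for the order of genes, showed where the exceptions lay. The order is by start position alone and takes no account of the strand, so neighbours in it need not share a transcript. Against the mean of embryo and endosperm alone, the consecutive genes rpl33, rps18, rpl20, rps12 and clpP gave -1.29, -0.11, -0.08, -0.92 and -1.40 for the 2 rps12 probe sets, and -0.64. The pale pair rps18 and rpl20 therefore sat beside genes that were called. Both rps12 probe sets were placed at the first position of the gene, and which part of it each reads is not known here. The gene ahead of rpoA in this order, petD, gave -1.95 ± 0.31, and rpoA itself 0.54 ± 0.32. The run of psaA, psaB and rps14 gave -1.68, -1.85 and -2.50, all called.

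Nuclear genes for subunits of the same complexes were few in the table. Of 12 listed photosystem I genes 2 were named and tested, PSAE-1 and PSAN, and both were called lower in the chalazal seed coat (-3.25 ± 0.26 and -3.07 ± 0.39). PSAE-1 read 332 and 494 there, 989 and 1661 in the seed coat and 2462 to 8275 in embryo and endosperm. Of 9 photosystem II genes PSBW and PSBY were tested and both called lower (-2.26 and -1.86). The ATP synthase gene ATPC1 was called lower (-2.86 ± 0.35), and RCA, for Rubisco activase, was not (-0.74 ± 0.30, adjusted p = 0.072). Of 15 nuclear respiratory chain genes 5 were tested, and 0 were called by limma in the chalazal seed coat (adjusted p from 0.19 to 0.94). None of the 6 sigma factors, the 12 polymerase-associated proteins or the 5 alternative oxidases was named in the table, and RPOTMP, the 1 named of 3 phage-type polymerases, was too dim to be tested.

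Embryo markers were set beside the plastid signal. The 4 tested of 8 embryo markers, storage and late embryogenesis genes, summed to 142673 to 185164 in the embryo, 55839 to 56656 in micropylar, 42733 to 61440 in peripheral and 10781 to 18766 in chalazal endosperm, 68946 to 70785 in whole seeds, 5259 to 7205 in the seed coat and 623 to 898 in the chalazal seed coat, and all 4 were called lower in both seed coat groups. None of the 4 was at 0. The 4 highest sums were those of the embryo, whole seeds, micropylar and peripheral endosperm. These groups also had plastid members called higher, though in peripheral endosperm only 4 of 73, against 5.49% of all probe sets. With the chalazal seed coat left out, 0 members were called in micropylar and peripheral endosperm. In the embryo 5 plastid members were then called higher, against 9.95% of all. The part of RNA from neighbouring tissue in the plastid signals was not tested. The plastid median was 7495 and 7869 in chalazal endosperm, against 9274 and 10650 in the embryo.

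Set against the seed coat alone, a comparison added after the data were seen, the chalazal seed coat had 36 of 73 plastid probe sets called lower and 0 higher, with a median of -1.08, where 7.77% of all probe sets were called lower. For 66 of the 73 both chalazal seed coat arrays lay below both seed coat arrays, as for 28.4% of all probe sets. The called genes included 9 of 13 for photosystem II and 4 of 5 for photosystem I, but 6 of 19 for ribosomal proteins. With embryo and endosperm as the only other side, also added after the data were seen, 64 were called lower, where 19.1% of all were. In that comparison 1 of 13 mitochondrial members, nad4L, was called higher, and the mitochondrial median was 0.41. The share of all probe sets called higher is not given for it, and was 15.7% against all 5 other compartments. This 1 call is thus no result about the mitochondrial members.

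In the rest of the seed coat, 8 of 73 plastid probe sets were called lower than the mean of the other 5 compartments and 0 higher. Over all probe sets 14.6% were called lower, so the plastid count does not exceed the background. Of the 8, 7 were ribosomal protein genes out of 19. The other was psbI, a small subunit of photosystem II. The rpl16 signals were 3765 and 3044 in the seed coat, 1560 and 2049 in the chalazal seed coat and 7657 to 18268 in embryo and endosperm (-1.05 ± 0.22, adjusted p = 0.0019). The seed coat arrays thus lay below all 8 filial arrays and above both of the chalazal seed coat. For rpl32 the difference was -1.12 ± 0.29, for rpl23 -1.01 ± 0.25, for rps4 -0.91 ± 0.27 and for rps3 -0.71 ± 0.22. Without seed coat replicate 1 the rpl32 difference was -0.68, the calls for rpl32, rpl23, rps4 and rps3 were lost, and the count of all members called fell from 12 to 1. The rps4 call was also lost without replicate 2.

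Because the low chalazal seed coat enters the mean of the others, the 6 differences of a probe set add to 0 and each other compartment is raised by it. With the chalazal seed coat left out, the seed coat had 19 plastid probe sets called lower than embryo and endosperm, where 18.0% of all were called lower, and the median was -0.37. The 19 comprised 11 of 19 ribosomal protein probe sets (median -0.90), 3 of 6 for ATP synthase, 3 of 13 for photosystem II, psaJ and petA. Both seed coat arrays lay below all 8 embryo and endosperm arrays for 14 plastid probe sets, against 12.4% of all tested. For the chalazal seed coat it was 60, against 14.4% of all. The median was -0.72 for ATP synthase, -0.48 for cytochrome b6f, -0.38 for photosystem I and -0.35 for photosystem II. It was 0.01 for the NDH complex and -0.17 for the RNA polymerase, with 0 of 11 and 0 of 4 members called by limma. Within complexes the values were uneven: psaB gave -0.28 and psaJ -1.03, petB -0.08 and petA -0.72, and psbD -0.13 and psbI -1.05, of which psaJ, petA and psbI were called. The rbcL difference was -0.07 ± 0.22.

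**Figure D4:**
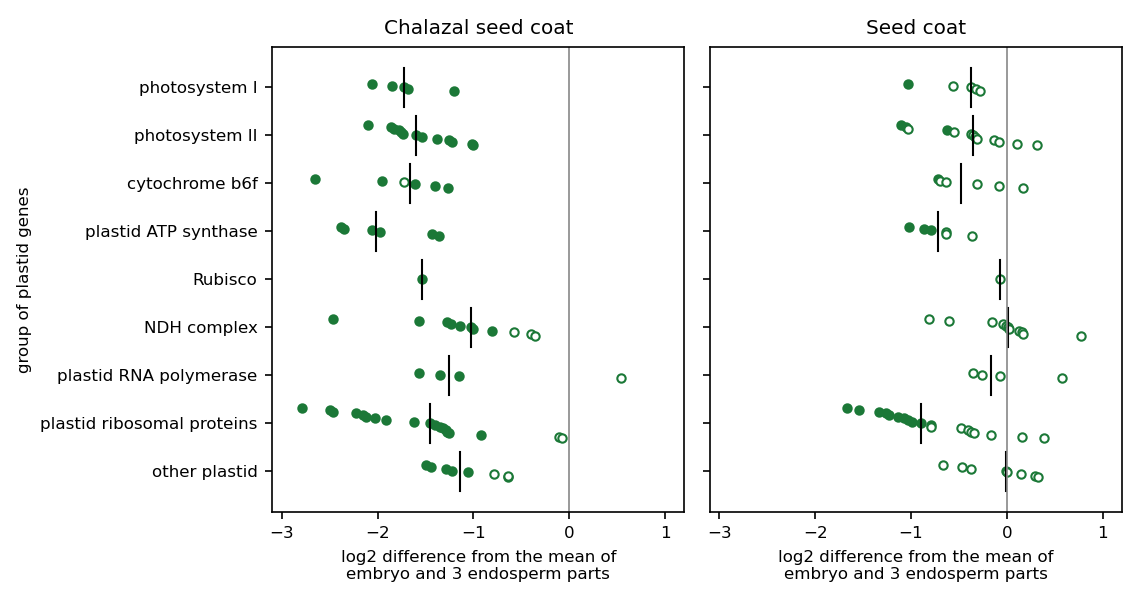
Log2 difference of the 73 plastid probe sets from the mean of embryo and the 3 endosperm parts, in the chalazal seed coat (left) and the seed coat (right), by complex; each point is a probe set, filled where called, and bars are medians. In the chalazal seed coat nearly all points lie left of 0, and in the seed coat the filled points are mostly ribosomal protein and ATP synthase genes. Both panels share the embryo and endosperm arrays.

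Neighbouring ribosomal protein genes made up much of this group. In the consecutive order rpl14, rpl16, rps3, rpl22, rps19, rpl2 and rpl23, the seed coat differences from embryo and endosperm were -0.99, -1.54, -1.14, -1.03, -0.79, -0.34 and -1.26, and each was called but that of rpl2. The same genes gave -2.22, -2.46, -2.15, -1.91, -1.62, -1.32 and -1.26 in the chalazal seed coat, all called. Ribosomal protein genes elsewhere in the genome were called in the seed coat as well, rpl32, rps4, rps14 and rps7 with differences from -1.67 to -1.07, while rps18 and rpl20 were at 0.16 and 0.39.

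The seed coat result depends on the scaling. Dividing each array by its spike-in controls shifted the median of all probe sets in this comparison by -1.19, and then 94 members were called, all of them lower. Dividing by the array median shifted it by -0.41 and gave 28 (1 higher, 27 lower), and quantile normalization gave 9 (3 higher, 6 lower). Relative to all probe sets the plastid median was -0.07 as deposited, -0.08 with the array median and -0.11 with the spike-in controls, but 0.21 after quantile normalization, so that its sign depends on the scaling.

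In the embryo, 27 of 73 plastid probe sets were called higher than the mean of the other 5 compartments and 0 lower, against 12.6% of all probe sets called higher. The median was 0.57, and 11 of the 27 were ribosomal protein genes. For rpl16 the embryo arrays read 12013 and 18268 and all other compartment arrays 1560 to 10229 (1.51 ± 0.22, adjusted p = 9.5e-05). For psbM, a small photosystem II subunit, they read 1536 and 836, and the value 836 lay below the 1162 of 1 micropylar endosperm array (1.53 ± 0.40, adjusted p = 0.0099). Without embryo replicate 1 it was 1.09 and not called. With the chalazal seed coat left out, 5 plastid probe sets were called higher, atpA, psaJ, psbM, rpl16 and rps3, where 9.95% of all were. That number does not exceed the background. The count of all members called was 32 and fell to 15 without embryo replicate 1 and to 17 (8 higher, 9 lower) without embryo replicate 2. It was 18 (13 higher, 5 lower) after quantile normalization and 28 (27 higher, 1 lower) with spike-in scaling.

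Embryo and endosperm, both filial tissues, were then set against each other. Of 73 plastid probe sets 1 was called higher in the embryo than in the mean of the 3 endosperm parts, rpl16 at 0.78 ± 0.23 (adjusted p = 0.027), and 0 were called lower, while the shares over the whole array were 7.71% higher and 8.41% lower. The rpl16 difference was 0.48 and not called without embryo replicate 2, and its call was also lost without micropylar endosperm replicate 1 or peripheral endosperm replicate 2. It was lost too under quantile, array median, nuclear median and spike-in scaling and without the intensity trend. The median plastid difference was 0.24. A missed threshold does not show equal levels: the standard error of a plastid difference had a median of 0.27. The other 5 calls among members were probe sets with no gene, all lower in the embryo. The count of 6 was 2 without embryo replicate 1, micropylar endosperm replicate 1 giving 2 as well, 3 without peripheral or chalazal endosperm replicate 1, and 11 without embryo replicate 2. With quantile, array median or spike-in scaling 5, 6 and 5 were called, all lower in the embryo.

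The 3 endosperm parts were each set against the mean of the other 5 compartments, and were not tested against each other. In micropylar endosperm 15 plastid probe sets were called higher, against 6.15% of all, and 0 lower, against 5.37%. Of these 15, 5 were for photosystem II. The most different was 1 of the 2 rps12 probe sets (1.45 ± 0.37), whose arrays read 27628 and 7858. Its second probe set read 12813 and 11333 and was not called (0.39 ± 0.23), so the rps12 call rests on replicate 1. The ndhD arrays read 15515 and 7962 (1.32 ± 0.30) and those of psbT, a small photosystem II subunit, 1743 and 1049 (1.11 ± 0.29). The calls for rpl32 (1.09 ± 0.29) and rps14 (1.07 ± 0.31) came with embryo values as high, 16626 and 11585 for rpl32. Without micropylar endosperm replicate 1 all 5 of these calls were lost, with rps12 at 0.54, ndhD at 0.84 and psbT at 0.74, and those of rpl32 and rps14 were lost without replicate 2 as well. The rps14 call was lost without 9 of the 14 arrays. The count of 15 became 0 without micropylar endosperm replicate 1 and 4 without replicate 2, 9 without embryo replicate 1, and 7 without either replicate of peripheral endosperm or of whole seeds. It became 24 without seed coat replicate 2 and 30 without chalazal seed coat replicate 2.

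In peripheral endosperm 4 of 73 plastid probe sets were called higher, against 5.49% of all, and 0 lower, against 4.17%. Neither count exceeds the background. Those called higher were psbT 0.96 ± 0.29, petN 0.87 ± 0.25, psbZ 0.79 ± 0.21 and rpl16 0.72 ± 0.22. All 4 calls were lost without either peripheral endosperm array, and those of psbT, petN and rpl16 without 11, 10 and 11 of the 14 arrays. With the chalazal seed coat left out, 0 members were called by limma in micropylar endosperm, where 2.95% of all probe sets were higher and 2.50% lower, and 0 in peripheral endosperm, where 1.53% were higher and 1.26% lower. The peripheral count of 5 members (4 higher, 1 lower) became 0 without its own replicate 2 and 1 without its replicate 1. It was 2 without micropylar endosperm replicate 2 or any array of chalazal endosperm or whole seeds, and 3 without replicate 1 of embryo or chalazal seed coat. It was 9 without seed coat replicate 2 and 16 without chalazal seed coat replicate 2. Its count was 13 (12 higher, 1 lower) with array medians, 31, all higher, with spike-in scaling, and 5 (2 higher, 3 lower) after quantile normalization.

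Chalazal endosperm, which borders the chalazal seed coat, had 2 of 73 plastid probe sets called lower, against 6.07% of all, and 0 called higher. The lower count does not exceed the background. The rpoA signals were 3785 and 4595, below all other compartment arrays, which read 4979 to 14271 (-1.08 ± 0.31, adjusted p = 0.033). The ndhK signals of 1624 and 1992 overlapped with the 1525 and 1925 of the chalazal seed coat and lay below the rest (-0.72 ± 0.22, adjusted p = 0.044). Both calls were lost without any 1 array of chalazal or peripheral endosperm, and that of ndhK without 8 of the 14 arrays. With the chalazal seed coat left out, petN and ycf1 joined them and 4 were called lower, where 5.92% of all were, again not above the background. The ycf1 arrays read 2306 and 6667, far apart. The count of all members called was 3 and became 0 without chalazal endosperm replicate 1, and 1 without its replicate 2 or either peripheral endosperm array. The split was 1 higher and 1 lower with array medians, 2 and 2 after quantile normalization, and no call with spike-in scaling.

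Mitochondrial transcripts did not share the low chalazal seed coat of the plastid ones, and no order of compartments was resolved for them. In the embryo all 13 differences from the other compartments were below 0, with a median of -0.44. Of the 13, 2 were called lower, where 12.7% of all probe sets were, so the count is near the background. Both called genes encode subunits of respiratory complex I. The nad4L arrays read 6941 and 5476 in the embryo, 7143 and 7135 in peripheral endosperm, and 8617 to 20008 in the other 4 compartments (-0.82 ± 0.26, adjusted p = 0.031). The embryo arrays lay below all others. For nad6 the embryo read 1886 and 1589 and the others 2329 to 4904, also without overlap (-0.78 ± 0.25, adjusted p = 0.03). Both calls were lost without embryo replicate 1, at -0.99 and -0.90, without embryo replicate 2, at -0.65 and -0.66, and with spike-in scaling, at -0.67 and -0.63. They were also lost without the filter on dim probe sets and without the intensity trend. That of nad4L was also lost without micropylar endosperm replicate 1 (-0.79) and that of nad6 without peripheral endosperm replicate 1 (-0.77). With the chalazal seed coat left out, nad6 was called lower and nad4L was not.

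The chalazal seed coat had the highest compartment mean for 7 of the 13 mitochondrial members. Against embryo and endosperm alone, nad4L was the only 1 of the 13 called higher in the chalazal seed coat. The cox2 transcript, for a subunit of cytochrome c oxidase, read 5935 and 5481 there, 7049 and 4544 in the seed coat and 2460 to 5091 in embryo and endosperm, and was not called in any comparison. The cytochrome c maturation gene ccb206 gave 0.71 (adjusted p = 0.075), with 3564 and 3352 in the chalazal seed coat and 1156 to 4322 elsewhere in compartments. The ccb452 arrays read 10281 and 5788 in the chalazal seed coat, inside the range of the other compartments for replicate 2 and above it for replicate 1. The nad4 signals of 3171 and 3114 lay within 1967 to 4873 (0.09, adjusted p = 0.8). The intron maturase gene matR read 6582 and 3784 against 1871 to 6994 (0.25, adjusted p = 0.61), and its difference turned to -0.15 without chalazal seed coat replicate 1. Of the 13 names, 7 are also symbols in the RefSeq mitochondrial record.

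Among nuclear respiratory genes, SDH1-1, a subunit of succinate dehydrogenase, read 3792 and 4102 in the chalazal seed coat and 3018 to 6512 in other compartments (-0.14 ± 0.22). CYTC-2, a cytochrome c gene, and COX5B, a subunit of cytochrome c oxidase, were called lower in the seed coat (-2.93 and -2.57). The COX5B arrays read 191 and 639 there and 977 to 2881 in the other compartments.

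Of the 35 members that the table gives no gene, 27 were tested. In the chalazal seed coat 1 of them was called higher, where 15.7% of all probe sets were, and 4 lower, where 16.8% of all were, so neither count exceeds the background. The one called higher, 244906_at, numbered among the mitochondrial names, read 20518 and 14652 in the chalazal seed coat, 20165 and 13735 in the seed coat and 2806 to 8713 in embryo and endosperm. Both seed coat groups lay above all filial arrays, and it was called higher in the seed coat too, where 14.0% of all were. The 3 numbered among plastid genes were among the 4 called lower: 244979_at read 4220 and 2996 in the chalazal seed coat and 244981_at 1145 and 1489. In chalazal endosperm 244903_at was the 1 member called higher, where 6.74% of all were, with 8465 and 10124 (0.86 ± 0.23).

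Whole seeds hold all compartments together, in shares of RNA that were not measured. The 4 tested seed coat markers summed to 420 to 476 in whole seeds and 135 to 141 in the embryo. Their sums were 2255 to 2757 in the seed coat and 2204 to 4957 in the chalazal seed coat. The low chalazal seed coat also enters the mean of the compartments and raises the plastid differences below. Against the mean of the 6 compartments, 23 of 73 plastid probe sets were called higher and 0 lower, where the array as a whole gave 6.81% higher and 2.81% lower. No mitochondrial member was called. The median plastid difference was 0.72. The widest differences were those of rpoC1, rpoC2 and rpoB, 3 of the 4 RNA polymerase genes, while rpoA was not called (0.66, adjusted p = 0.21). The rpoC1 arrays read 6048 and 11010 in whole seeds and 1026 to 5587 in compartments (1.46 ± 0.28), rpoC2 5959 and 7001 against 1241 to 6656 (1.26), and rpoB 4702 and 5023 against 900 to 4154 (1.26). For rpoC1 and rpoB both whole seed arrays lay above every compartment array. The petN gene (1.12) and ycf2 (1.11) followed, and rbcL read 56275 and 57772 against at most 40928. The calls for rpoC2, rpoB, petN and ycf2 were lost without either whole seed array, and that for rpoC1 without replicate 2, at 1.02. Against the embryo alone, 0 plastid probe sets were called by limma in either direction and the median was 0.23, where 3.54% of all were called higher and 1.26% lower.

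For 42 of 73 plastid members, or 57.5%, the whole seed mean lay above the range of the 6 compartment means, as it did for 11.9% of all tested probe sets and 0 of the 13 mitochondrial members. For the 113 tested members the count was 47, and it was 15 with array median scaling, 14 with scaling on nuclear probe sets and 29 with spike-in scaling. The count of members called, 23, was 5 (4 higher, 1 lower) with array medians, which shifted the median of all probe sets by -0.23, while the plastid median relative to all stayed at 0.63. Without whole seeds replicate 1 it was 2 and without replicate 2 it was 0. It was 15 without either peripheral endosperm array and 37 without chalazal seed coat replicate 2.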

How the data were processed

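RNA from 14 samples was read on Affymetrix ATH1 arrays. Per the submitters' processing notes the authors obtained the deposited intensity values with GCOS, with a version and algorithm not given in the sources used here. Each deposited intensity is on a linear scale, and all arrays share a trimmed mean near 500.05 (2% trimmed from each end). A floor of 23.44, set at the 20th percentile of an array (median over arrays), was applied before taking log2. Probe sets above their array's median on both arrays of at least 1 group were kept, 14257 of 22746, and 64 controls were left out. limma 3.58.1 in R 4.3.3 (lmFit, eBayes with an intensity trend) fitted 1 mean per group with 7 residual degrees of freedom, and p-values were adjusted by Benjamini-Hochberg over all kept probe sets in each of 8 comparisons. The fit was tested on simulated data. Genes were named from the platform annotation and RefSeq. Named genes were a list of central genes, the 5 widest called differences in each direction per comparison, and the 3 brightest probe sets per genome. The members and lists were chosen with earlier results of these data known. P-values measure the spread between samples labelled as biological replicates. The labels do not say what a replicate number shares. No pairing was seen in the values: deviations of same-numbered samples correlated between -0.061 and 0.096 over 21 pairs of groups. No sequences are shown, since none was among the sources used here.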

Additional observations from a re-analysis of the deposited data

How the results depend on the processing

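Counts below are of members called, out of 113 tested, and the cause of each change was not tested. As reported they were 32 for the embryo, 15 for micropylar, 5 for peripheral and 3 for chalazal endosperm, 70 for the chalazal seed coat, 12 for the seed coat, 6 for embryo against endosperm and 23 for whole seeds. Those not listed stayed within 1.5 times. Robust moderation moved no count by over 1.5 times. Without the floor peripheral endosperm gave 3. Without the filter the embryo gave 18, micropylar endosperm 3, peripheral endosperm 1, chalazal endosperm 0, embryo against endosperm 2 and whole seeds 9. Quantile normalization gave 18 for the embryo, 3 for micropylar endosperm and 15 for whole seeds. Division by the array median gave 40 for micropylar and 13 for peripheral endosperm, 28 for the seed coat and 5 for whole seeds, and by the median of nuclear probe sets 41, 13, 28 and 5. Spike-in scaling gave 45 for micropylar, 31 for peripheral and 0 for chalazal endosperm, 94 for the seed coat and 12 for whole seeds. The compartment arrays alone gave 7 for micropylar and 2 for peripheral endosperm. Without the intensity trend the embryo gave 14, micropylar endosperm 1, peripheral and chalazal endosperm 0 each, the seed coat 7, embryo against endosperm 1 and whole seeds 1. With the chalazal seed coat left out, chosen after seeing the data, the embryo gave 10, micropylar and peripheral endosperm 0 each, chalazal endosperm 5 and the seed coat 25. The chalazal seed coat against the seed coat alone gave 38, and whole seeds against the embryo alone 1, both also chosen after seeing the data. Whole seeds above the compartment range went from 47 to 15, 29 and 14 with array median, spike-in and nuclear median scaling.

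With 1 array left out, the counts ran from 15 to 37 for the embryo, 0 to 30 for micropylar, 0 to 16 for peripheral and 0 to 3 for chalazal endosperm, 45 to 71 for the chalazal seed coat, 1 to 16 for the seed coat, 2 to 11 for embryo against endosperm and 0 to 37 for whole seeds. The lone array of a group was then assumed to vary like the others. With the replicate number as a block they were 31, 17, 7, 3, 70, 13, 6 and 24, in the order above. What the numbers share is not labelled. Of 48 named differences 15 kept their side of the threshold and direction under every setting; 11 of them were lower values in the chalazal seed coat (accD, atpB, ndhD, petB, petN, psaA, psaB, psbD, rbcL, rpl32 and rps14). The matR difference there ran from -0.15 without chalazal seed coat replicate 1 to 0.65 without replicate 2, with no call in either.

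Each group has 2 arrays, so a call rests on a spread shared over groups. Members share transcripts, and a probe set with suffix _s_at, as 17 members have, can read related sequences.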
